A study of Homo sapiens with 2 samples.

Results

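The genes described here serve the editing of APOB mRNA and the assembly of intestinal lipoproteins. They were chosen by name and number 10: the editing factors A1CF and APOBEC1, the apolipoprotein genes APOB, APOA1, APOA2, APOA4, APOC3, APOE and APOH, and the lipid transfer gene MTTP. Of these, 4 (A1CF, APOH, APOE and APOA2) had a row among the 19989 genes of the expression table. The other 6 (APOBEC1, APOB, MTTP, APOA1, APOA4 and APOC3) had no row and were counted as not detected. The measurements come from hNCI-H716, a line from a human colorectal adenocarcinoma that serves as an L-cell model; the cells were grown in suspension, plated on Matrigel and then held for 48 h in 5.5 mM (low) or 25 mM (high) glucose. Libraries of polyadenylated RNA numbered 1 per concentration, with totals of 21757776 estimated counts under low glucose and 19456537 under high glucose, so no difference between the concentrations has a replicate check. Levels are CPM, that is, estimated counts scaled to the library total, here with the small constant that the authors added and after a normalization factor for each library, with 95% Wilson intervals that cover counting error only.

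In the small intestine, enterocytes pack dietary fat into chylomicrons around the protein encoded by APOB. The deaminase APOBEC1, held on the transcript by an RNA-binding cofactor such as A1CF or RBM47, converts a cytidine of APOB mRNA to uridine, which creates a stop codon, and the intestine therefore makes a shorter protein than the liver does. The protein encoded by MTTP loads lipid onto the growing APOB chain in the endoplasmic reticulum. The products of APOA1, APOA4 and APOC3 ride on the finished particles, whereas APOH is known mainly as a plasma protein made by the liver.

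Most L-cell markers were measured, whereas 6 of the 10 editing and apolipoprotein genes had no row. Of 12 L-cell markers, 9 reached at least 1 CPM in both libraries, and the proglucagon gene GCG was the most abundant of them, at 1954 CPM under low glucose and 1808 CPM under high glucose. PYY, NEUROD1 and INSL5 had no row. Among the 10 editing and apolipoprotein genes, 3 (A1CF, APOH and APOE) reached at least 1 CPM in both libraries. These are 3 of the 4 members with a row, and 64.0% of all rows reached that level in both libraries. Of the 19936 protein-coding symbols of the GENCODE v29 annotation, with or without a row, 56.1% reached it, against 3 of the 10 members. A row at all was found for 69.3% of these symbols, or 70.8% with older symbols allowed, and for 4 members by either way of matching.

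An absent row is a statement about the table. The authors removed genes with very low totals before scaling, and the lowest total in the rows present was 1.01 estimated counts over both libraries. However, 0 of 18 protein-coding symbols of the pseudoautosomal regions had a row, among them SLC25A6, which most human cells express (named after this was seen), so an absent row cannot be read as a count of 0.

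**Figure D1:**
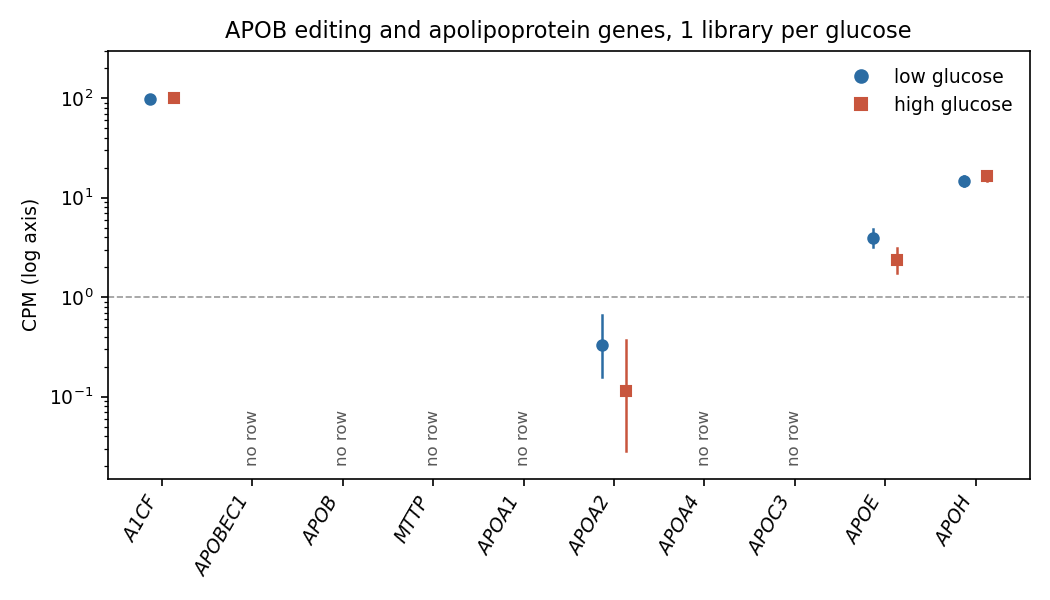
CPM of each gene (log axis) in the low glucose library (circles) and the high glucose library (squares), with 95% Wilson intervals as vertical lines and a dashed line at 1 CPM. A1CF lies near 100 CPM, APOH and APOE lie lower, APOA2 lies under 1 CPM, and 6 genes have no row.

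A1CF, which encodes the RNA-binding cofactor that docks APOBEC1 on its target, was abundant in both libraries. A1CF (ENSG00000148584.14; chromosome 10 of GRCh38, 50799409 to 50885675, minus strand) was at 98.2 CPM under low glucose (94.1 to 102) and 102 CPM under high glucose (97.2 to 106), from 2134 and 1979 estimated counts. Its intervals in the 2 libraries overlapped. The log2 ratio of high over low glucose was 0.048, with an exact binomial interval of -0.041 to 0.14 that includes 0. By mean CPM, which takes no account of transcript length, A1CF ranked 2240 of the 19989 genes. The library kit did not mark strand, and the A1CF locus overlaps ASAH2B on the other strand (15.9 and 14.5 CPM), but their annotated exons share 0 bases.

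APOBEC1, the catalytic subunit (ENSG00000111701.6; chromosome 12, 7649400 to 7665903, minus strand), had no row, so the docking factor was measured without its enzyme. The rest of the APOBEC and AID family was sparse as well. Of 11 such cytidine deaminases, APOBEC1 included, 3 had a row and 1 reached at least 1 CPM in both libraries. That gene was APOBEC3B, at 1.57 CPM under low glucose and 1.60 CPM under high glucose. Over all protein-coding symbols, 69.3% had a row and 56.1% reached at least 1 CPM in both libraries. APOBEC3C was at 1.39 and 0.987 CPM, and APOBEC3A rested on 0 and 1.12 estimated counts; levels of these closely similar genes are uncertain, since reads may be divided among them. The adenosine deaminases, which act on other RNA substrates, differed from APOBEC1 in this respect: 5 of 6 reached at least 1 CPM in both libraries, led by ADAR at 318 and 324 CPM. In the list of 16 deaminases without APOBEC1, 7 had a mean of at least 1 CPM, with a median log2 ratio of 0.021 against -0.0064 over all 13052 genes at that level, and 1 (ADAT1) had an interval above 0, as did 15.8% of those genes.

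Most of the other cofactors named for APOB editing were measured, as A1CF was. Of 8 such genes, 7 reached at least 1 CPM in both libraries, beside 56.1% of all protein-coding symbols. CELF2 had no row. RBM47, which can replace A1CF as the cofactor of APOBEC1, was at 109 CPM under low glucose and 113 CPM under high glucose, with a log2 ratio of 0.044 (-0.041 to 0.13). Its interval, like that of A1CF, includes 0. SYNCRIP, a relative of A1CF that binds the same complex, was at 277 and 297 CPM, with a log2 ratio of 0.10 (0.050 to 0.15). In all, 5 of the 7 cofactors (SYNCRIP, HNRNPAB, DNAJB11, BAG4 and HNRNPC) had intervals above 0, and none had one below 0; their log2 ratios ran from -0.037 for KHSRP to 0.24 for BAG4, with a median of 0.10. Intervals above 0 were found for 15.8% of all genes averaging 1 CPM or more and for 20.4% of those averaging 10 CPM or more, as these 7 do. Against the 40 genes nearest to each in mean CPM, the size of the log2 ratio was larger than that of 36 genes for DNAJB11, 33 for BAG4, 31 for HNRNPAB, 20 for SYNCRIP and 10 for HNRNPC. For A1CF itself this number was 12, and for RBM47 it was 10.

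**Figure D2:**
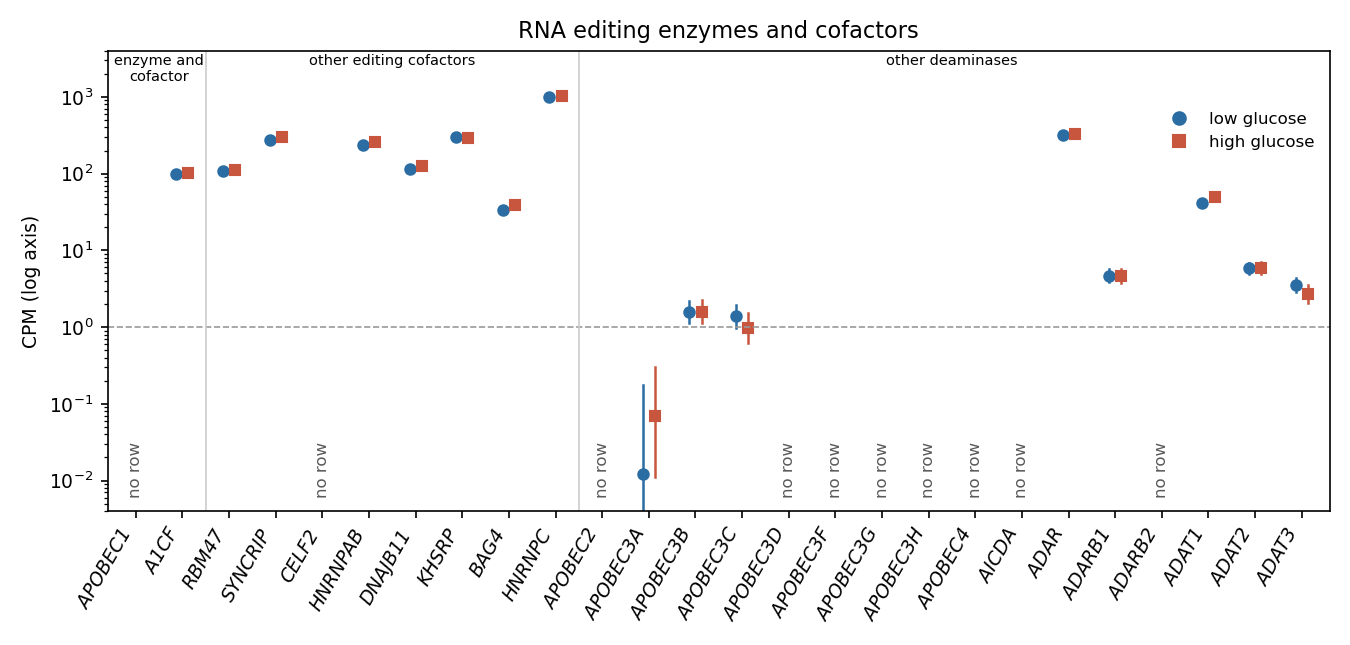
CPM (log axis) of APOBEC1 and A1CF, of the other cofactors of APOB editing and of the other deaminases under low glucose (circles) and high glucose (squares), with 95% Wilson intervals and a dashed line at 1 CPM. Cofactors with a row lie above 30 CPM, whereas APOBEC1 and most cytidine deaminases have no row.

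The substrate of the editing complex was missing from the table too. APOB (ENSG00000084674.14; chromosome 2, 21001429 to 21044073, minus strand), whose product is the structural protein of chylomicrons, had no row. MTTP (ENSG00000138823.13; chromosome 4, 99563761 to 99623999, plus strand) had none either, although TRMT10A, which overlaps it on the other strand, was at 8.71 CPM under low glucose and 9.20 CPM under high glucose. The partner of MTTP in the active transfer protein, encoded by P4HB, is a general folding enzyme of the endoplasmic reticulum, and it was at 1370.2 and 1343 CPM. Hence, of the lipid transfer heterodimer, the common subunit was abundant and the lipid-specific subunit was not detected.

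Genes that serve to carry APOB particles out of the endoplasmic reticulum were measured, although APOB had no row. Of 25 assembly and export genes, 24 had a row and 19 reached at least 1 CPM in both libraries, beside 56.1% of all protein-coding symbols. These included 10 of the 11 COPII coat genes, which also serve other secreted proteins. SAR1B, mutated in chylomicron retention disease and named here for its role after its values were seen, was at 43.2 and 49.0 CPM. A further 5 genes had a row but lay below 1 CPM in 1 or both libraries. Among them were TM6SF2 and PLA2G12B, also named after their values were seen. TM6SF2 rested on 2 and 1 estimated counts, and PLA2G12B on 7 and 5. All 19 averaged 10 CPM or more, and 8 had intervals above 0 and 2 below, with a median log2 ratio of 0.055; over all 9345 genes at that level, the shares were 20.4% above and 18.0% below. The highest ratios were those of SAR1A (0.24) and SURF4 (0.20), a cargo receptor for lipoproteins, and the lowest were those of SEC24D (-0.092) and MIA3 (-0.079).

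Among the members, the APOA genes and APOC3 were not detected or, for APOA2, near the limit of counting. APOA1 (ENSG00000118137.9), the main protein of high-density lipoproteins, APOA4 (ENSG00000110244.6), an intestinal protein induced by fat, and APOC3 (ENSG00000110245.11), an inhibitor of lipoprotein lipase, had no row. APOA2 (ENSG00000158874.11; chromosome 1, 161222292 to 161223631, minus strand), the second protein of high-density lipoproteins, was at 0.334 CPM under low glucose (0.156 to 0.665) and 0.115 CPM under high glucose (0.028 to 0.374). These levels rest on 7 and 2 estimated counts, against a limit of 3 counts for a gene at 0, which is worth 0.138 CPM under low glucose and 0.154 CPM under high glucose. The log2 ratio of APOA2 was -1.54 with an interval of -4.95 to 0.74, and a difference was therefore not detectable at this depth. Its mean lies under the 1 CPM required for a call.

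Markers of the absorptive cells that normally make these proteins were present in part. Of 14 enterocyte markers, 7 reached at least 1 CPM in both libraries, beside 56.1% of all protein-coding symbols. The list summed to 238 and 251 CPM. The sucrase-isomaltase gene SI was the most abundant, at 117 and 124 CPM, and MEP1B was at 54.2 and 50.2 CPM and DPP4 at 45.8 and 50.4 CPM. ALPI, LCT, RBP2, SLC5A1, SLC2A2 and SLC2A5 had no row, as was the case for APOB, MTTP, APOA1, APOA4 and APOC3. These are bulk libraries of a cultured line, so the markers give levels in that line and not a number of enterocytes. Expression by few of its cells and low expression by all of them cannot be told apart.

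APOE, which encodes the ligand for clearance of remnant particles, was low but measured in both libraries. APOE (ENSG00000130203.9; chromosome 19, 44905754 to 44909393, plus strand) was at 3.92 CPM under low glucose (3.16 to 4.84) and 2.37 CPM under high glucose (1.77 to 3.15), from 85 and 46 estimated counts. The Wilson intervals of the libraries did not overlap, and APOE was lower under high glucose, with a log2 ratio of -0.73 and an interval of -1.28 to -0.19. Among genes averaging 1 CPM or more, 16.0% had an interval below 0, and this share was 10.9% of the 3707 genes averaging under 10 CPM, as APOE does. The log2 ratios of the 40 genes nearest to APOE in mean CPM had an SD of 0.90, and the ratio of APOE was 0.81 times that SD in size. Of those 40 genes, 36 had a ratio smaller in size than that of APOE.

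Since macrophages also make APOE, their markers were examined beside it. Of 10 macrophage markers, 3 had a row, beside 69.3% of all protein-coding symbols. These 3 markers summed to 456 CPM under low glucose and 427 CPM under high glucose. Most of that was LYZ, at 441 and 413 CPM. CD68 was at 14.4 and 12.9 CPM, and CD14 at 0.749 and 1.24 CPM. CD163, CSF1R, C1QA, C1QB, C1QC, PTPRC and AIF1 had no row. Both libraries came from a cultured tumour line, so these values are levels in that line and do not measure a macrophage fraction. The source of the APOE level was not tested.

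APOH, which encodes beta-2-glycoprotein I, was the best measured apolipoprotein among the members. APOH (ENSG00000091583.10; chromosome 17, 66212033 to 66256525, minus strand) was at 14.7 CPM under low glucose (13.1 to 16.3) and 16.6 CPM under high glucose (14.9 to 18.5), from 318 and 323 estimated counts. The intervals overlapped, and the log2 ratio was 0.18 (-0.049 to 0.41). For the 40 genes nearest to APOH in mean CPM, the SD of the log2 ratio was 0.21, above the ratio of APOH itself. Of those 40 genes, 24 had a ratio smaller in size than that of APOH. Of 16 hepatocyte markers, 4 reached at least 1 CPM in both libraries, beside 56.1% of all protein-coding symbols. A further 4 had a row but lay below that level in 1 or both libraries. The whole list summed to 699 CPM under low glucose and 722 CPM under high glucose, led by ALB (456 and 487 CPM) and AMBP (223 and 209 CPM). TF, FGG, HP, HPX, F2, TAT, CYP3A4 and CYP2E1 had no row.

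Across the members, no log2 ratio reached 1 in size among the 3 with a mean of at least 1 CPM. In all, 0.215% of the 13052 genes at that level were past 1 in the direction of high glucose and 0.621% in the direction of low glucose. The counting interval excluded 0 for 1 of the 3 members, APOE, as it did in either direction for 31.7% of all genes at that level, so this count is near the background. The median log2 ratio of the 3 members was 0.048. A1CF and APOH had ratios above 0 and APOE below 0, so the measured members did not share a direction.

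**Figure D3:**
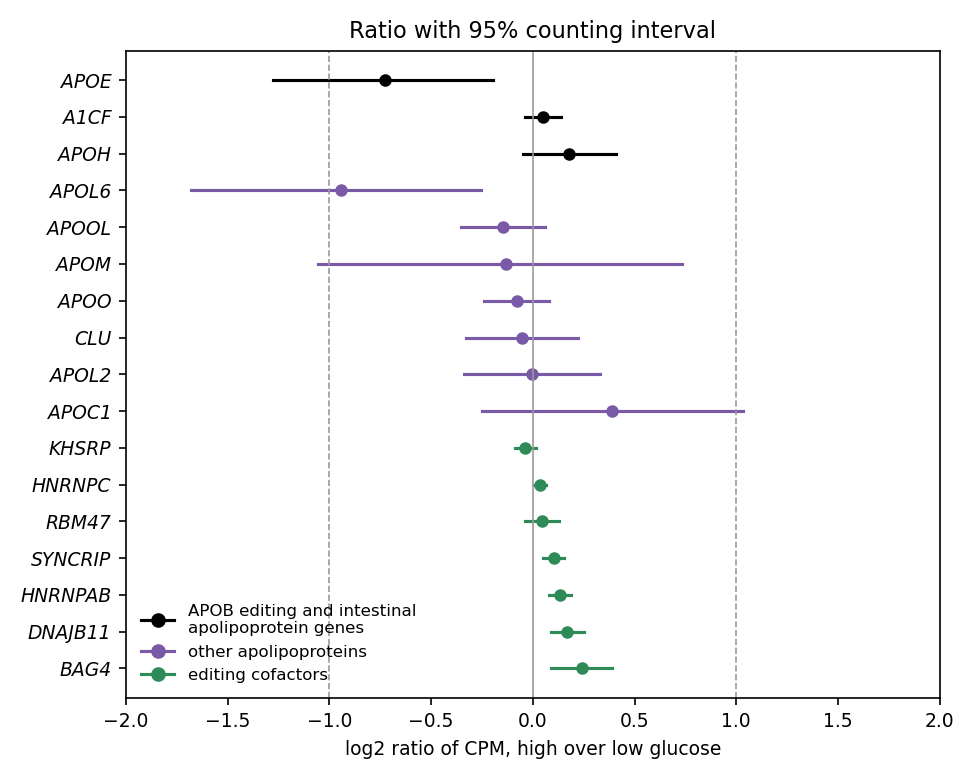
Log2 ratio of CPM in high over low glucose for genes averaging 1 CPM or more, with 95% exact binomial counting intervals as horizontal lines, a solid line at 0 and dashed lines at -1 and 1. APOE and APOL6 have intervals below 0, whereas those of A1CF and APOH include 0.

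Per kb of the longest annotated transcript, the order of the levels differed from that in CPM. APOH was highest, at 12.5 CPM per kb under low glucose (11.2 to 13.9) and 14.1 CPM per kb under high glucose (12.6 to 15.7). A1CF followed at 10.3 CPM per kb (9.89 to 10.8) and 10.7 CPM per kb (10.2 to 11.2). APOE was at 3.25 and 1.96 CPM per kb, and APOA2 at 0.361 and 0.124 CPM per kb. The intervals of neighbours in this order did not overlap in either library. The order of APOH and A1CF depends on the length taken, since the longest A1CF transcript has 9.52 kb; with the median length of annotated transcripts, A1CF had 46.2 and APOH 21.5 mean CPM per kb.

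Apolipoprotein genes outside the members were also measured in part. Of 17 such genes, 11 had a row and 7 reached at least 1 CPM in both libraries. The most abundant in CPM were APOO (33.1 and 31.3 CPM) and APOOL, whose products reside in mitochondria, and the secreted chaperone gene CLU. APOA5, APOC4, APOL3, APOL4, APOL5 and LPA had no row, as for APOB and APOA1. APOL6, an intracellular member of another family, was at 2.59 CPM under low glucose and 1.35 CPM under high glucose, with a log2 ratio of -0.94 (-1.68 to -0.25). Its interval lay below 0, as did those of 10.9% of genes averaging at least 1 and under 10 CPM. Of the 40 genes nearest to it in mean CPM, 33 had a ratio smaller in size. Among the 7 genes, APOL6 alone had an interval excluding 0, and the median log2 ratio was -0.080. APOD, at 0.380 and 0.987 CPM from 8 and 19 estimated counts, had a log2 ratio of 1.38 (0.15 to 2.81) but a mean under 1 CPM, so it was not called. Counting members and others together, 9 of 24 apolipoprotein genes reached at least 1 CPM in both libraries, beside 56.1% of all protein-coding symbols.

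APOA1, APOC3 and APOA4 lie side by side on chromosome 11, with APOA5, and all 4 had no row. The genes on either side of this cluster were measured. ZPR1, next to APOA5, was at 31.9 and 31.8 CPM, and SIK3, next to APOA1 and named after its values were seen, was at 11.4 and 12.7 CPM. All 7 neighbours examined there reached at least 1 CPM in both libraries, beside 56.1% of all protein-coding symbols. The absent rows thus covered the 4 apolipoprotein genes and none of the 7 neighbours listed. The antisense genes APOA1-AS and AP006216.3, which overlap APOA1 and APOA4 and were not in that list, also had no row.

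On chromosome 19, APOE lies between TOMM40 and APOC1, and here the cluster was partly measured. APOC1, which encodes a small exchangeable apolipoprotein, was at 1.85 CPM under low glucose and 2.42 CPM under high glucose, with a log2 ratio of 0.39 (-0.25 to 1.04), opposite in sign to that of APOE but with an interval that includes 0. APOC4 had no row, and APOC2 rested on 2.43 and 0 estimated counts, under the limit for a fold. TOMM40, upstream of APOE, was far above it, at 134 and 139 CPM, with a log2 ratio of 0.054. Of the 5 neighbours outside the apolipoproteins, 1 had an interval that excludes 0, against 31.7% of all genes averaging 1 CPM or more. It was RELB, at 6.18 and 4.63 CPM, with an interval below 0.

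**Figure D4:**
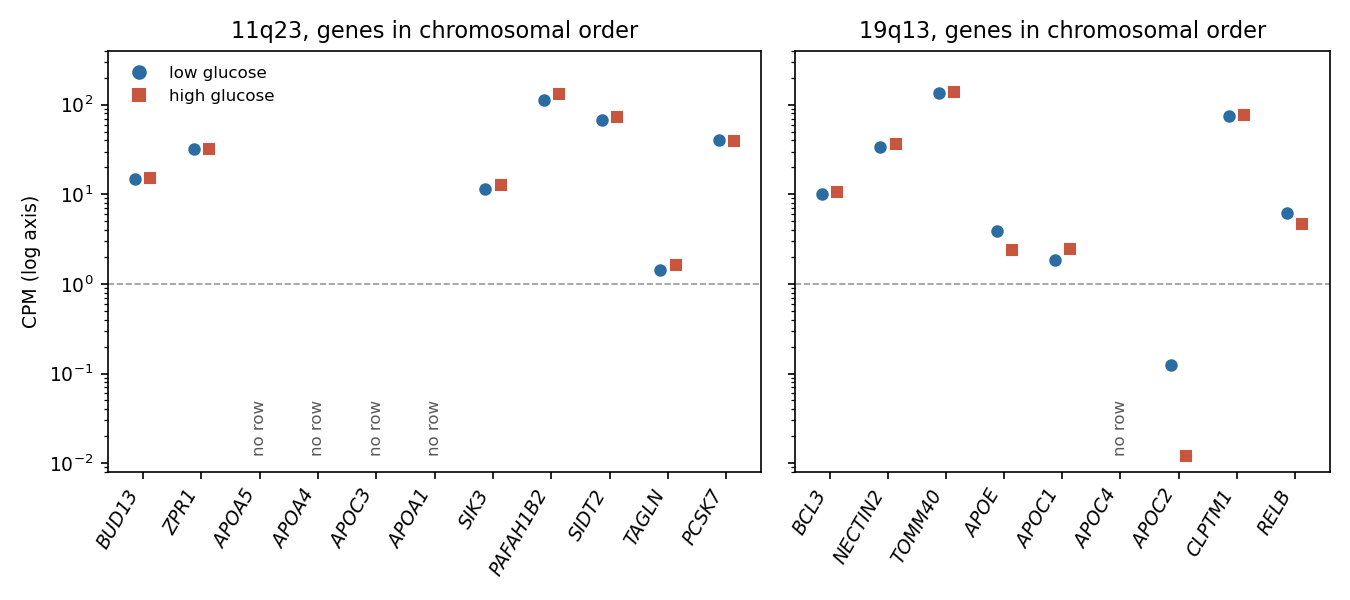
CPM (log axis) of genes in chromosomal order around APOA1 (left) and APOE (right) under low glucose (circles) and high glucose (squares), with a dashed line at 1 CPM. The apolipoprotein genes of the left cluster have no row between measured neighbours, and APOE and APOC1 lie below TOMM40 and CLPTM1.

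While APOB, MTTP, APOA1, APOA4 and APOC3 had no row, many transcription regulators known to act on apolipoprotein promoters in liver and intestine did. Of 36 regulators, 26 reached at least 1 CPM in both libraries, where 56.1% of all protein-coding symbols did so. HNF4A, a main activator of these apolipoprotein genes in liver and intestine, was at 109 CPM under low glucose and 112 CPM under high glucose; it is named for its role, after its values were seen. NR2F1, which competes with HNF4A for related sites, was the most abundant regulator at 479 and 414 CPM. CREB3L3, GATA4, GATA5, NR0B2 and CDX1 were among those with no row. Of the 26 regulators averaging 1 CPM or more, 3 had intervals above 0 and 4 below, against 15.8% and 16.0% of all genes, with a median log2 ratio of -0.026. The lowest was CEBPB, at 28.02 and 14.3 CPM (log2 ratio -0.97, -1.18 to -0.76), and the highest was CDX2, at 30.5 and 38.2 CPM (0.33, 0.17 to 0.48).

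The members can be set beside the lists around them by how many genes were absent. No row was found for 6 of the 10 members, against 30.7% of all protein-coding symbols. Among genes of the pathway, none was found for 1 of 8 cofactors, 6 of 36 regulators, 6 of 17 other apolipoproteins, 8 of 16 other deaminases and 1 of 25 assembly and export genes, the last being VAMP7 of the pseudoautosomal regions. For the marker lists, the absent genes were 6 of 10 for colonocytes, 7 of 10 for macrophages, 8 of 16 for hepatocytes, 6 of 14 for enterocytes, 3 of 12 for L-cells and 1 of 8 for goblet cells.

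**Figure D5:**
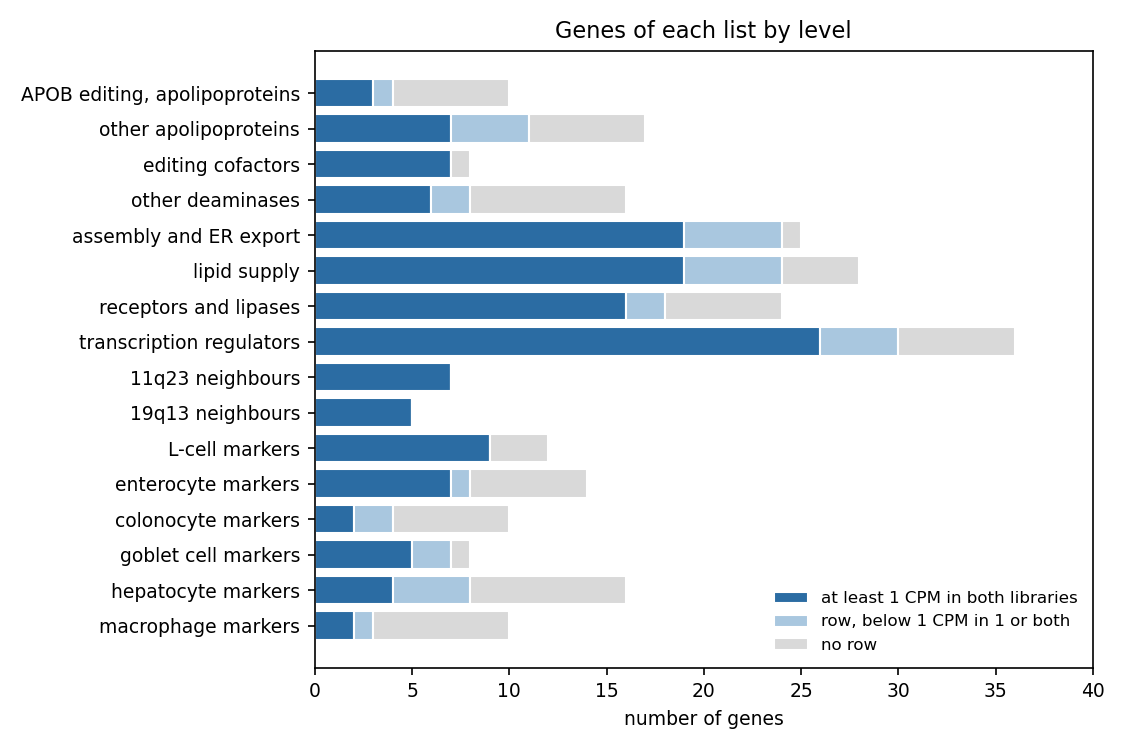
Number of genes in each list with at least 1 CPM in both libraries (dark), with a row but below 1 CPM in 1 or both (light) or with no row (grey). The editing and apolipoprotein genes have 3, 1 and 6 genes in these classes, while the editing cofactors have 7 of 8 and the assembly and export genes 19 of 25 in the first.

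Promoter sequences were matched for 7 of the 10 members in the RefSeq table (GRCh38.p14); APOB, APOA1 and APOC3 had no entry. The RefSeq start of APOH lies 27110 bases inside the GENCODE gene given above, while those of A1CF, APOBEC1 and APOA4 lie within 48 bases of the annotated gene end. The sequences printed are 300 bases (250 before to 50 after the start) of the undetected enzyme APOBEC1 and the undetected APOA4, beside the measured A1CF and APOH, each 5′ to 3′ on the minus strand. Capitals mark matches on either strand to AAAGTCCA, the core of an HNF4 motif.
APOBEC1, chr12:7665859-7666158: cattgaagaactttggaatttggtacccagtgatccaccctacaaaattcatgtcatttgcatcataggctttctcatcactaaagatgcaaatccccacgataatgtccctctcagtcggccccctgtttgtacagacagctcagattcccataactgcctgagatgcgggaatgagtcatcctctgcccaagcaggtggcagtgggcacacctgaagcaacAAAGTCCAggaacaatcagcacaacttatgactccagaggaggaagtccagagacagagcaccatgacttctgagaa
APOA4, chr11:116823255-116823554: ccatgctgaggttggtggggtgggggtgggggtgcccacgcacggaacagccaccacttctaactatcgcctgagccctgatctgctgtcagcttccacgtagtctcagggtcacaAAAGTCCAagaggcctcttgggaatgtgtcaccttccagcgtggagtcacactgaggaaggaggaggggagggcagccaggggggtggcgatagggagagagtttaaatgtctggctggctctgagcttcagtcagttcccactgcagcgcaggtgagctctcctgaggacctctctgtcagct
A1CF, chr10:50885578-50885877: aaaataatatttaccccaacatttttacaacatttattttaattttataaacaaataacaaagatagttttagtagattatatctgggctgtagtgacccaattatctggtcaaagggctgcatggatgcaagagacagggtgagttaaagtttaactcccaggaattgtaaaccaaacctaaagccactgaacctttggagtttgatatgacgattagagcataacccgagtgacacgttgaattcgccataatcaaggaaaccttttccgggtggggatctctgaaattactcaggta
APOH, chr17:66229366-66229665: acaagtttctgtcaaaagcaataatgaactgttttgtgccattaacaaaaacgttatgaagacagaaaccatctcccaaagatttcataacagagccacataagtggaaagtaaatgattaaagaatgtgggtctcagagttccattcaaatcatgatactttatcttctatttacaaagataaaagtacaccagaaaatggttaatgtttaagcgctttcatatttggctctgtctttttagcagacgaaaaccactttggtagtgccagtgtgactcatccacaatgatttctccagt
The HNF4 letters occurred once each in APOBEC1 and APOA4, starting 27 and 134 bases before the start site. Of all 35116 promoters of this length, 1.14% held these letters. The promoters of A1CF, APOH, MTTP, APOA2 and APOE held none. A match describes the letters only, and a promoter without one lacks only these letters in this window.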

How the data were processed

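Polyadenylated RNA of hNCI-H716 cells was sequenced as paired-end reads from 1 low glucose and 1 high glucose library. Per the submitters' processing notes and the study's methods, the authors trimmed reads with Trim Galore 0.5.0, aligned them with STAR 2.6.0 to human assembly 38 with GENCODE 28, estimated counts with RSEM 1.3.1, removed genes with a total under 1 expected count and normalized by the trimmed mean of M-values (TMM) in edgeR. The authors deposited, per library, CPM and the log2 of CPM for 19989 genes; the deposited log2 differed from the log2 of the deposited CPM by at most 0.00051. Means, a log2 difference and a fold of high over low glucose, the authors' own comparison, were also in the table and were not used.

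The CPM worth of 1 count was recovered from steps between low values (0.0460 in low and 0.0514 in high glucose); within 0.02 of a count, 70.9% and 71.8% of values under 10 CPM were whole. The prior of 0.0121 CPM was kept. Deposited CPM were divided by TMM factors computed from these counts (0.998 and 1.002) with scipy 1.17.1, pandas 2.3.3 and numpy 2.4.6 under Python 3.11.15. Before this step, CPM summed to 0.317 (low glucose) and 0.261 (high glucose) short of 1000000, the sum under scaling to the plain library total. Wilson intervals for levels and exact binomial intervals for ratios, both at 95%, cover counting error only. With 1 library per group no p-value was computed. A fold call meant a log2 ratio of 1 or more in size, and an interval call an interval excluding 0, among genes averaging 1 CPM or more. Lists (16, with 246 genes) were described by counts and medians. From each, the 4 most abundant genes and the 2 highest and 2 lowest ratios could be named, and any cofactor, deaminase, apolipoprotein or gene without a row; some of these genes are not reported here. The members and lists were chosen with earlier results of these data known. Positions and lengths came from GENCODE 29 on GRCh38. The alternatives were CPM as deposited, median-of-ratios size factors, removal of the prior, a pseudocount of 1 CPM, other CPM thresholds and filters, and median transcript length. The calculations were tested on simulated data.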

Additional observations from a re-analysis of the deposited data

How the results depend on the processing

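Of 63 levels, ratios and counts recomputed under the alternatives, 57 stayed within the counting interval or within 1.5 times the count, 5 moved and 1 reversed. The scalings differed little, with TMM factors of 0.998 and 1.002 and a prior of 0.0121 CPM. The levels and most ratios therefore had little room to move, and their stability says little. Of 32 recomputed list medians, which have no interval, 7 moved by over 1.5 times, 2 with CPM as deposited and 5 among genes averaging 10 CPM or more, where that of the members went from 0.048 to 0.11 and that of the deaminases from 0.021 to 0.14. Without a filter on low values, 1 member (APOA2) passed a log2 ratio of 1 in size, against 0 with the filter, because a gene with 7 and 2 estimated counts was then admitted. With a mean of at least 10 CPM required, 0 members had an interval excluding 0, against 1, because APOE lies under that mean. Over all genes, 109 passed a log2 ratio of 1 in size, against 2932 without a filter, 9 with a mean of at least 10 CPM and 31 with a pseudocount of 1 CPM. The log2 ratio of A1CF over APOH per kb was -0.34 with the longest transcript and 1.10 with the median transcript length, which reversed their order by construction, as the longest A1CF transcript is far above the median. The median log2 ratio over genes averaging 1 CPM or more was -0.0064 with TMM, -0.0020 as deposited and -0.0022 with size factors. No paired analysis was possible because there was 1 library at either concentration. Depth limits APOA2, whose log2 ratio of -1.54 has an interval of -4.95 to 0.74 and was -0.26 with a pseudocount of 1 CPM. Members without a row have no interval, and why they have no row was not tested.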

Other observations

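Of 28 genes that supply lipid for particle assembly, 19 reached at least 1 CPM in both libraries, beside 56.1% of all protein-coding symbols. They were led by the fatty acid transporter CD36 (218 CPM under low glucose and 225 CPM under high glucose) and the fatty acid activating enzyme ACSL3 (177 and 193 CPM). MOGAT1, MOGAT2, FABP1 and SOAT2, which include the intestinal monoacylglycerol acyltransferase and a main fatty acid binding protein of enterocytes, had no row. Of the 19, 4 had counting intervals above 0 and 2 below, where 15.8% and 16.0% of all genes averaging 1 CPM or more had them. The median log2 ratio was 0.050. The lowest ratios were those of LPIN2 (40.6 and 32.4 CPM; -0.32, -0.47 to -0.17) and the cholesterol exporter ABCA1 (9.31 and 7.45 CPM; -0.32).

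Among 24 receptors and lipases of lipoproteins, 16 reached at least 1 CPM in both libraries, with 2 intervals above 0, 2 below and a median log2 ratio of -0.0070. Over the whole data, 56.1% of protein-coding symbols reached that level, and 15.8% and 16.0% of genes had such intervals above and below 0. SCARB1, a receptor for high-density lipoproteins, was at 243 and 252 CPM. ANGPTL4, an inhibitor of lipoprotein lipase, had the highest ratio, at 5.03 CPM under low glucose and 7.25 CPM under high glucose (0.53, 0.16 to 0.90). VLDLR, LIPC, CETP, GPIHBP1 and ANGPTL8 were among the genes with no row.

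Goblet cell markers were represented by AGR2 (3757 CPM under low glucose and 3706 CPM under high glucose; log2 ratio -0.020, -0.034 to -0.0053) and TFF3 (207 and 155 CPM; log2 ratio -0.41, -0.48 to -0.35), and by FCGBP, which had a ratio above 0 (24.1 and 31.4 CPM; 0.38, 0.21 to 0.55). SPDEF was at 8.53 and 9.76 CPM (0.20, -0.10 to 0.50), MUC2 was at 0.334 and 0.269 CPM and ZG16 had no row. SPINK4 was at 36.9 and 32.3 CPM (-0.19, -0.35 to -0.041), and CLCA1 at 0.703 and 1.04 CPM. Of the 5 goblet markers averaging 1 CPM or more, 1 had an interval above 0 and 3 below. Over all genes at that level, 15.8% and 16.0% had them. Of all 8 goblet markers, 5 reached at least 1 CPM in both libraries, beside 56.1% of all protein-coding symbols. Of 10 colonocyte markers, 2 did so, GUCA2B (365 and 315 CPM; log2 ratio -0.21, -0.26 to -0.16) and GUCA2A (15.8 and 14.9 CPM), and CA1, CA4, SLC26A3, AQP8, CEACAM7 and MS4A12 had no row.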
